A study of Arabidopsis thaliana with 4 samples.

Results

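Caffeoyl-CoA O-methyltransferase genes of Arabidopsis thaliana were followed across root RNA of 4 genotypes. Members were chosen by locus, with CCOAMT selected on its own array signals as told below. Of the 7 loci of the family considered, 3 had an array row that the platform annotation ties to them alone: CCOAMT (AT1G67980), AT1G24735 and AT3G62000. They are 3 of 16548 genes with such a row. The other 4 had none and were not analysed here: TSM1 (AT1G67990), CCoAOMT1 (AT4G34050), OMTF3 (AT3G61990) and AT4G26220, also named CCoAOMT7. CCOAMT drew attention through its low signal in CEPDL2ox against the other lines in these same arrays, so its signals below are a description and support nothing by themselves. The family was then built around it.

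The groups were 3 lines, CEPD1ox, CEPD2ox and CEPDL2ox, each named for overexpression of 1 member of the CEPD family of small mobile glutaredoxin-like proteins, and wild type (WT, accession Columbia). Each genotype was measured on 1 Affymetrix Arabidopsis Gene 1.0 ST array, so no spread within a genotype exists and no test could be made. All plants shared the same culture, on agar at 22 °C in continuous light, with transfer after 7 d to medium holding 10 mM NH4Cl and 10 mM KNO3 at 12 seedlings per plate, and roots were taken at 14 d. The promoter behind each transgene, the number of transgenic lines and the number of plants per array are not stated in the labels. In whole roots, fewer cells of a type and less RNA per cell cannot be told apart.

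The arrays carry a limit that touches each value from 1 of them. CEPD2 (AT2G47880) had a log2 signal of 9.22 in CEPD2ox, 225-fold above WT at 1.41, which is under the filter value given below. CEPDL2 (AT3G62960) had 5.49 in CEPDL2ox, 4.11-fold above WT at 3.46. CEPD1 (AT1G06830), in contrast, had a log2 signal of 3.04 on the array labelled CEPD1ox and 2.66 in WT, a difference of 0.38. It had 2.19 in CEPD2ox and 2.34 in CEPDL2ox. Its highest signal was thus on the array labelled CEPD1ox, and those on the other arrays were under the filter value. The symbols CEPD1, CEPD2 and CEPDL2 are assigned to these loci from general knowledge. Because the rise of CEPD1 over WT was small beside those of CEPD2 and CEPDL2, its array is called the array labelled CEPD1ox throughout. Of 14 root markers, 3 had a named row and all were well above the filter value of 2.78, the level that a gene's highest signal had to reach for it to be kept, with log2 signals from 6.58 to 12.98. Of 12 shoot and photosynthesis markers, 2 had one. RCA, the Rubisco activase, had log2 signals of 5.73 on the array labelled CEPD1ox, 6.14 for CEPD2ox and 5.66 for CEPDL2ox, against 6.31 in WT. PRK, the phosphoribulokinase of the Calvin cycle, had 3.27 on the array labelled CEPD1ox, 2.94 for CEPD2ox and 2.47 for CEPDL2ox, against 4.58 in WT. Its CEPDL2ox signal was under the filter value. The summed linear signal of both markers was 62.9 on the array labelled CEPD1ox, 78.3 for CEPD2ox and 56.2 for CEPDL2ox, against 103 in WT, and the part of this in the results below was not tested.

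Caffeoyl-CoA O-methyltransferases transfer a methyl group from S-adenosylmethionine to the ring of caffeoyl-CoA and yield feruloyl-CoA. Feruloyl-CoA feeds the guaiacyl and syringyl units of lignin, which stiffens xylem walls and seals the Casparian strip of the root endodermis. In Arabidopsis roots it is also the precursor of scopoletin, a coumarin that roots store as a glucoside and secrete. CCoAOMT1 is the member known for lignin and scopoletin synthesis, and TSM1 is known from the anther tapetum, where it methylates conjugates of spermidine.

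CCOAMT had a log2 signal of 4.84 on the array labelled CEPD1ox, 4.71 for CEPD2ox and 3.23 for CEPDL2ox, against 3.76 in WT. The array labelled CEPD1ox and CEPD2ox were thus both high, and CEPDL2ox lay below WT. CCOAMT was 2.11-fold higher than WT on the array labelled CEPD1ox, 1.93-fold higher for CEPD2ox and 0.69 times WT for CEPDL2ox. On the log2 scale these differences from WT were 1.08 on the array labelled CEPD1ox, 0.95 for CEPD2ox and -0.53 for CEPDL2ox. Their mean was 0.50 with an SD of 0.89 over the 3 lines, which share 1 WT array, so that this SD holds nothing of the error of the WT value. The mean was 1.01 without CEPDL2ox, 0.21 without the array labelled CEPD1ox and 0.27 without CEPD2ox, so the size of the mean turned on CEPDL2ox most.

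**Figure D1:**
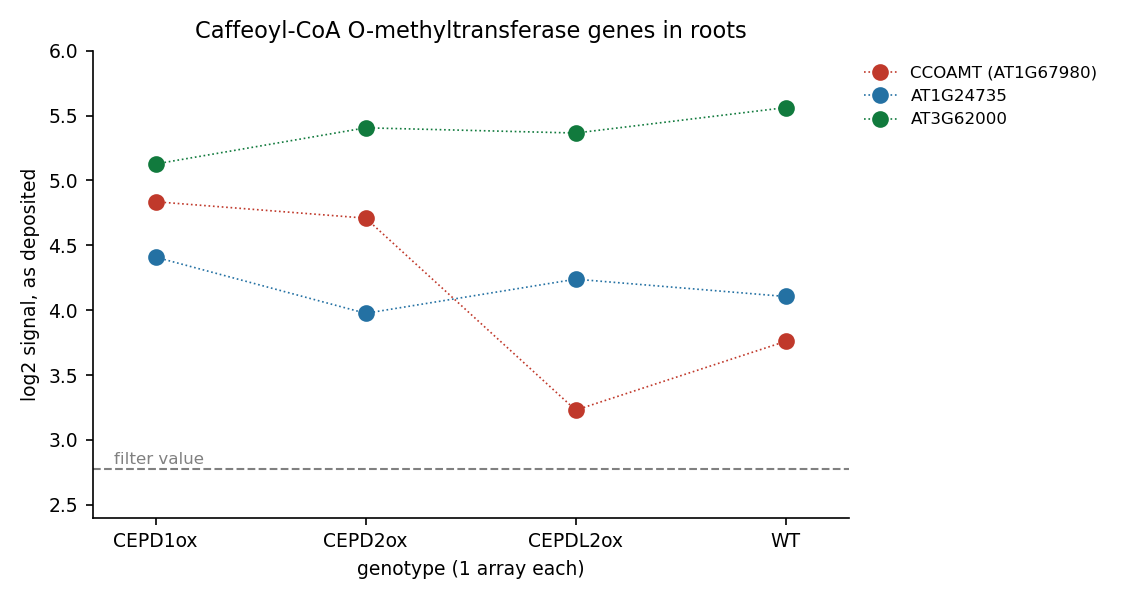
Log2 signals as deposited (vertical axis) of the 3 caffeoyl-CoA O-methyltransferase genes with a row of their own on the 4 arrays (horizontal axis, 1 point per array, no error bars since there is 1 array per genotype); the dashed line is the filter value of 2.78. CCOAMT is lowest in CEPDL2ox at 3.23 and highest on the array labelled CEPD1ox at 4.84, and heights of different genes are not comparable because their probes differ.

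The order of CCOAMT signals from high to low was the array labelled CEPD1ox, CEPD2ox, WT and CEPDL2ox. With no replicates, the only yardstick is how far genes of a like signal differ between a pair of arrays, which mixes array error with true differences between genotypes. For the 3553 genes with a mean log2 signal of 3 to 5, the SD of that difference lay between 0.393 and 0.425. The first neighbours in the order, CEPD2ox and the array labelled CEPD1ox, differed by -0.13, well inside this spread. CEPD2ox and WT differed by 0.95, a size that 2.03% of genes in this signal range exceeded. CEPDL2ox and WT differed by -0.53, a size that 15.3% exceeded, so the place of CEPDL2ox below WT is the less marked part of the pattern.

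CEPDL2ox differed most from the other lines. Its CCOAMT signal was 3.04-fold lower than on the array labelled CEPD1ox and 2.79-fold lower than in CEPD2ox, log2 differences of -1.61 and -1.48. At 3.23, the CEPDL2ox signal was not far above the filter value of 2.78, so the size of these differences may be limited by background. Only 10 of the 13232 genes kept, CCOAMT included, were as low or lower in CEPDL2ox against the array labelled CEPD1ox, and 16 against CEPD2ox. At least 2-fold lower in CEPDL2ox than in both of these lines were 24 genes, which is 0.181% of those kept. CCOAMT entered this account through that contrast, so these ranks are descriptive.

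AT1G24735, a gene of the same family, showed no such contrast. It had a log2 signal of 4.41 on the array labelled CEPD1ox, 3.98 for CEPD2ox and 4.24 for CEPDL2ox, against 4.11 in WT. WT lay inside the range of the lines, and the differences from WT were 0.30 on the array labelled CEPD1ox, -0.13 for CEPD2ox and 0.13 for CEPDL2ox. Neighbours in the order, from the array labelled CEPD1ox through CEPDL2ox and WT to CEPD2ox, lay 0.13 to 0.17 apart, less than the SD for genes of this signal. Its range over the 4 arrays was 0.43, and 56.7% of the genes with a mean signal of 3 to 5 had a wider one. The mean difference from WT was 0.10 ± 0.22 (SD over the 3 lines) and 0.00 without the array labelled CEPD1ox.

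AT3G62000 had a log2 signal of 5.13 on the array labelled CEPD1ox, 5.41 for CEPD2ox and 5.37 for CEPDL2ox, against 5.56 in WT. All lines lay below WT, by -0.43 on the array labelled CEPD1ox, -0.16 for CEPD2ox and -0.20 for CEPDL2ox on the log2 scale. A position below WT in all 3 lines at any size was shared by 24.2% of the genes kept, so it does not set this gene apart. The difference on the array labelled CEPD1ox was exceeded in size by 8.32% of the 4326 genes with a mean signal of 5 to 7, where the SD for this pair of arrays was 0.261. The difference in CEPD2ox was exceeded by 45.4% of them and that in CEPDL2ox by 39.3%. The mean difference of the lines from WT was -0.26 ± 0.15 (SD over the 3 lines). RCA and PRK, the photosynthesis markers, were also below WT in all lines. They were lowest in CEPDL2ox, whereas AT3G62000 was lowest on the array labelled CEPD1ox, and any link was not tested.

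At a threshold of 2-fold from WT, 1 of the 3 genes was past it, CCOAMT on the array labelled CEPD1ox. Without that array the number was 0, since CCOAMT in CEPD2ox stood at 1.93-fold. At least 2-fold higher than WT were 0.733% of all genes kept on the array labelled CEPD1ox, 0.506% for CEPD2ox and 0.771% for CEPDL2ox. At least 2-fold lower were 0.476% on the array labelled CEPD1ox, 0.393% for CEPD2ox and 0.491% for CEPDL2ox. Past 2-fold in any line and either direction were 2.77% of the genes kept. Such differences were more frequent at low signal. In the signal range of 3 to 5, where CCOAMT lies, 1.29% of genes were at least 2-fold higher on the array labelled CEPD1ox, against 0.208% of those with a mean signal of 5 to 7.

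**Figure D2:**
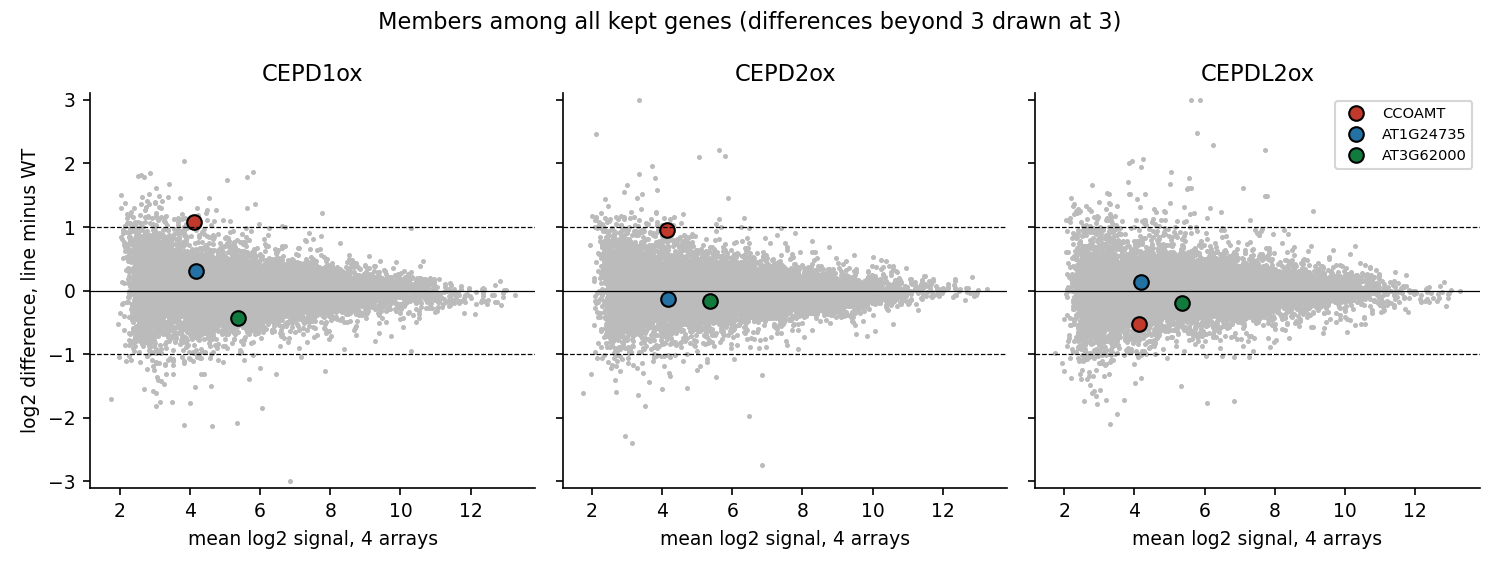
Log2 difference of each line from WT (vertical axis) against the mean log2 signal over the 4 arrays (horizontal axis) for the 13232 genes kept (grey) with the 3 members in colour; dashed lines mark 2-fold. CCOAMT lies at 1.08 on the array labelled CEPD1ox, 0.95 for CEPD2ox and -0.53 for CEPDL2ox, while AT1G24735 and AT3G62000 lie between -0.43 and 0.30 in every panel, and the grey cloud widens toward low signals.

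The 3 genes did not share a pattern. CCOAMT and AT1G24735 were highest on the array labelled CEPD1ox, the array on which AT3G62000 was lowest. In CEPDL2ox, CCOAMT was lowest of its 4 signals while AT1G24735 and AT3G62000 had middle values. The range over the arrays was 1.61 for CCOAMT and 0.43 for each of the others. For CCOAMT this range is the difference between CEPDL2ox and the array labelled CEPD1ox. That difference is part of the contrast it was chosen on, so its wider range is a description only. As a measure of likeness, each gene's 4 signals less their own mean were compared with those of CCOAMT by root mean square difference. This was 0.68 for AT1G24735, which ranked 6572 of 13231 genes by likeness, and 0.76 for AT3G62000, which ranked 10892. The measure counts range as well as order, so a gene of small range cannot lie near CCOAMT whatever its order.

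The 6 genes nearest to CCOAMT by this measure did not include AT1G24735 or AT3G62000. These were the only other members among 13231 ranked genes, so their absence was likely beforehand and is no result about the family. The nearest was AT1G35150, with a root mean square difference of 0.09, followed by AT1G67865 (0.14), AT3G21371 (0.17), the cytochrome P450 gene CYP71B38 (0.18), AT4G33830 (0.18) and AT1G58320 (0.20). A ranking of 13231 genes over 4 arrays says nothing of shared control. AT1G35150, AT3G21371, CYP71B38 and AT4G33830 fell short of the filter value on 2 or 3 of the 4 arrays, so their differences are limited by background. AT1G67865 and AT1G58320 lay above it on every array, though AT1G67865 only narrowly in CEPDL2ox, at 2.87 against 2.78. AT1G67865 had log2 signals of 4.49 on the array labelled CEPD1ox, 4.10 for CEPD2ox and 2.87 for CEPDL2ox, against 3.55 in WT. AT1G58320 had 6.92 on the array labelled CEPD1ox, 6.49 for CEPD2ox and 5.51 for CEPDL2ox, against 6.04 in WT. Both followed CCOAMT in the order of the 4 genotypes, which choosing them by likeness to CCOAMT nearly ensured. The share of all genes kept with this order, 3.7%, is therefore no yardstick for them.

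**Figure D3:**
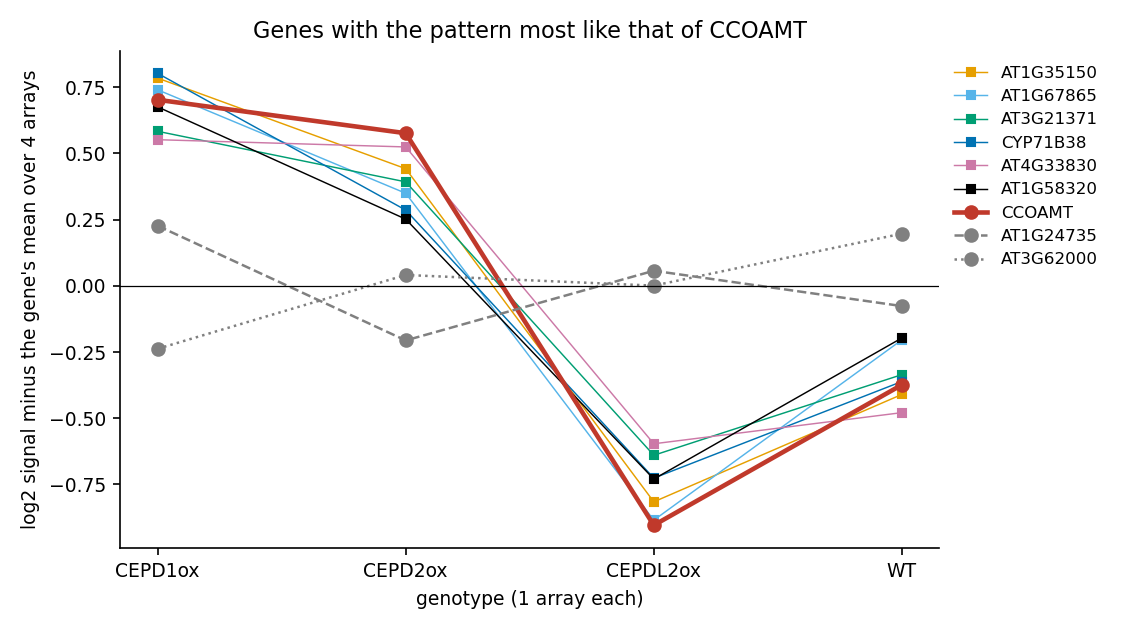
Log2 signal less the gene's own mean over the 4 arrays (vertical axis) by genotype (horizontal axis, 1 array each) for CCOAMT (thick line), the 6 genes nearest to it by root mean square difference (squares) and the other caffeoyl-CoA O-methyltransferase genes (grey). The 6 genes follow CCOAMT within 0.09 to 0.20, and AT1G24735 and AT3G62000 differ from it by 0.68 and 0.76.

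CCOAMT lies on chromosome 1 directly beside TSM1 in the TAIR10.1 gene order, and AT3G62000 lies directly beside OMTF3 on chromosome 3. Sequence shared between the probes of such neighbouring relatives was not examined. AT1G67865, the second gene by likeness, lies 13 places from CCOAMT. Of the 30 genes up to 15 places away, 13 passed the filter. Their median difference from WT was 0.06 on the array labelled CEPD1ox, 0.09 for CEPD2ox and -0.03 for CEPDL2ox, so the stretch as a whole did not share the CCOAMT pattern. Higher than WT on the array labelled CEPD1ox and in CEPD2ox but lower in CEPDL2ox, at any size, were 3 of the 13, against 7.74% of all genes kept. These were AT1G67865, AT1G67870 and AT1G67900. AT1G67870 differed from WT by 0.18 on the array labelled CEPD1ox, 0.55 for CEPD2ox and -0.22 for CEPDL2ox, and AT1G67900 by 0.11 on the array labelled CEPD1ox, 0.30 for CEPD2ox and -0.24 for CEPDL2ox. Past 2-fold among the 13 was only HPR (AT1G68010), the hydroxypyruvate reductase of photorespiration, beside 2.77% of all genes kept. It was lower on the array labelled CEPD1ox, with a signal of 3.67 against 4.98 in WT, and differed from WT by -0.53 in CEPD2ox and -0.84 in CEPDL2ox. The window was chosen after AT1G67865 was seen among the likest genes, so its counts are a description.

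**Figure D4:**
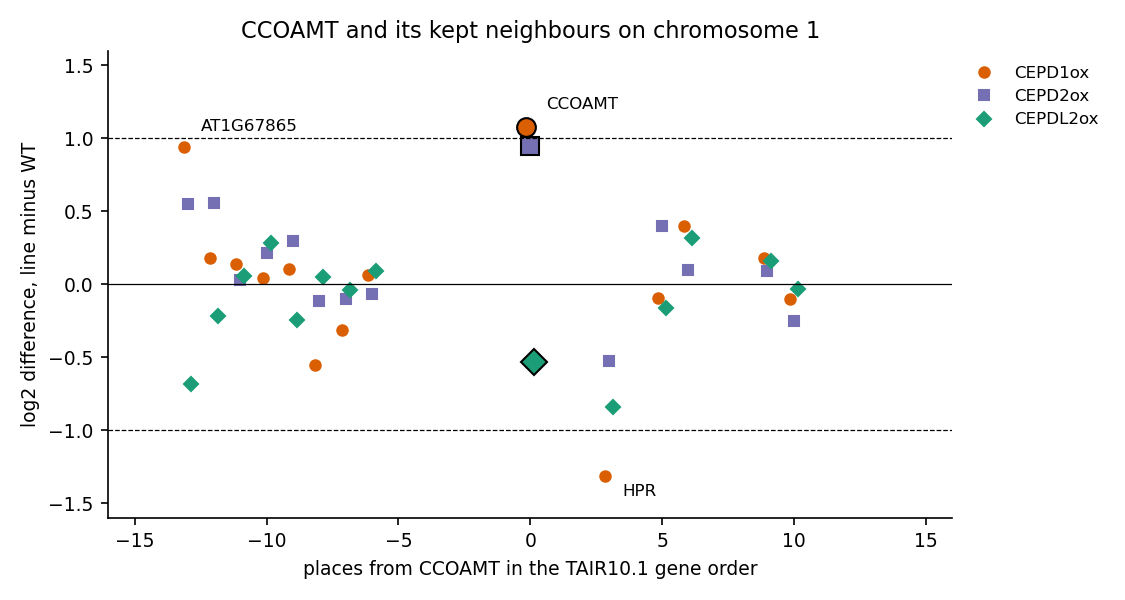
Log2 difference of each line from WT (vertical axis, symbols by line) for CCOAMT (large symbols at 0) and the 13 kept genes up to 15 places away in the TAIR10.1 gene order (horizontal axis); dashed lines mark 2-fold. AT1G67865, 13 places away, differs by 0.94 on the array labelled CEPD1ox, 0.55 for CEPD2ox and -0.68 for CEPDL2ox, and most genes in between lie near 0.

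Around AT3G62000, 13 of 30 such neighbours passed the filter and 0 were past 2-fold in any line, beside 2.77% of all genes kept. Their medians were -0.01 on the array labelled CEPD1ox, 0.07 for CEPD2ox and 0.09 for CEPDL2ox. Around AT1G24735 only 6 passed, with medians of -0.25 on the array labelled CEPD1ox, -0.16 for CEPD2ox and -0.28 for CEPDL2ox, and 1 of them was past 2-fold, AT1G24620, which had a log2 signal of 3.41 in CEPD2ox against 4.71 in WT.

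Genes of related pathways, their regulators and other O-methyltransferases were read from lists of 100 loci in all, of which 27 had a named row. Not all of them make or use caffeoyl-CoA or feruloyl-CoA. The filter was passed by 22. At least 2-fold from WT in any line and either direction were 2 of these 22, beside 2.77% of all genes kept. Both were higher on the array labelled CEPD1ox, where 0.733% of all genes kept were at least 2-fold higher. The lists were chosen with earlier results known, so counts over them are a description. In CEPD2ox and CEPDL2ox the number was 0. At any size, above WT in all 3 lines were 4 genes and below it 3, beside 24.3% and 24.2% of all genes kept. The median over the 22 of the mean difference from WT was 0.04, and 0.00 over all genes kept.

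Of 27 loci of the monolignol pathway, 4 were measured, and the signals of the other 23 were not analysed here. HCT, the hydroxycinnamoyl transferase that forms the shikimate ester upstream of caffeoyl-CoA, differed from WT by 0.13 on the array labelled CEPD1ox, 0.08 for CEPD2ox and 0.20 for CEPDL2ox. CYP84A4, a P450 relative of ferulate 5-hydroxylase, differed by 0.54 on the array labelled CEPD1ox, 0.22 for CEPD2ox and 0.15 for CEPDL2ox. HCT and CYP84A4 were the genes of the list above WT in every line. CCR2, a cinnamoyl-CoA reductase that acts on feruloyl-CoA, differed by 0.03 on the array labelled CEPD1ox, -0.22 for CEPD2ox and 0.28 for CEPDL2ox, and ALDH2C4, which oxidises coniferaldehyde to ferulic acid, by 0.03 on the array labelled CEPD1ox, -0.13 for CEPD2ox and -0.03 for CEPDL2ox. None of the 4 was past 2-fold, beside 2.77% of all genes kept.

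Of 16 loci for lignin polymerisation and the Casparian strip, 5 were measured. AT2G41480, known as the peroxidase PRX25, had a log2 signal of 5.49 on the array labelled CEPD1ox, 5.24 for CEPD2ox and 4.64 for CEPDL2ox, against 4.38 in WT. It was 2.15-fold higher than WT on the array labelled CEPD1ox, 1.81-fold for CEPD2ox and 1.19-fold for CEPDL2ox. As with CCOAMT, the array labelled CEPD1ox and CEPD2ox were high, but CEPDL2ox lay above WT. AT5G64120, known as PRX71, differed by -0.96 on the array labelled CEPD1ox, 0.36 for CEPD2ox and -0.54 for CEPDL2ox from a WT signal of 10.57. PRX52 differed by -0.03 on the array labelled CEPD1ox, 0.42 for CEPD2ox and 0.31 for CEPDL2ox, and AT5G66390 (PRX72) by 0.22 on the array labelled CEPD1ox, -0.002 for CEPD2ox and 0.25 for CEPDL2ox. GSO1, also called SGN3, the receptor kinase that keeps the Casparian strip closed, lay within 0.14 of WT.

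Coumarin genes were the best covered, with 7 of 11 loci measured. AT3G12900, known as S8H, hydroxylates scopoletin and so acts downstream of feruloyl-CoA. Its log2 signal was 6.59 on the array labelled CEPD1ox, 5.70 for CEPD2ox and 4.94 for CEPDL2ox, against 5.30 in WT. This is the order of genotypes seen for CCOAMT, and it was found in 3.7% of all genes kept. Of the 22 list genes, 2 had it, S8H and the O-methyltransferase gene AT1G77530. The latter differed from WT by only -0.05 in CEPDL2ox. S8H was 2.45-fold higher than WT on the array labelled CEPD1ox, with log2 differences from WT of 0.40 in CEPD2ox and -0.36 in CEPDL2ox. AT1G28680, known as COSY, which closes the coumarin ring, differed by 0.02 on the array labelled CEPD1ox, -0.24 for CEPD2ox and 0.02 for CEPDL2ox. AT1G55290 (F6'H2), a feruloyl-CoA 6'-hydroxylase, differed by 0.14 on the array labelled CEPD1ox, -0.24 for CEPD2ox and 0.28 for CEPDL2ox. The beta-glucosidase genes BGLU21, BGLU22, BGLU42 and PYK10 lay between -0.17 and 0.37 of WT, from WT signals of 7.82 to 12.98. None of these 6 genes was past 2-fold, beside 2.77% of all genes kept, so this does not set them apart. S8H was the only gene of the list past it.

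**Figure D5:**
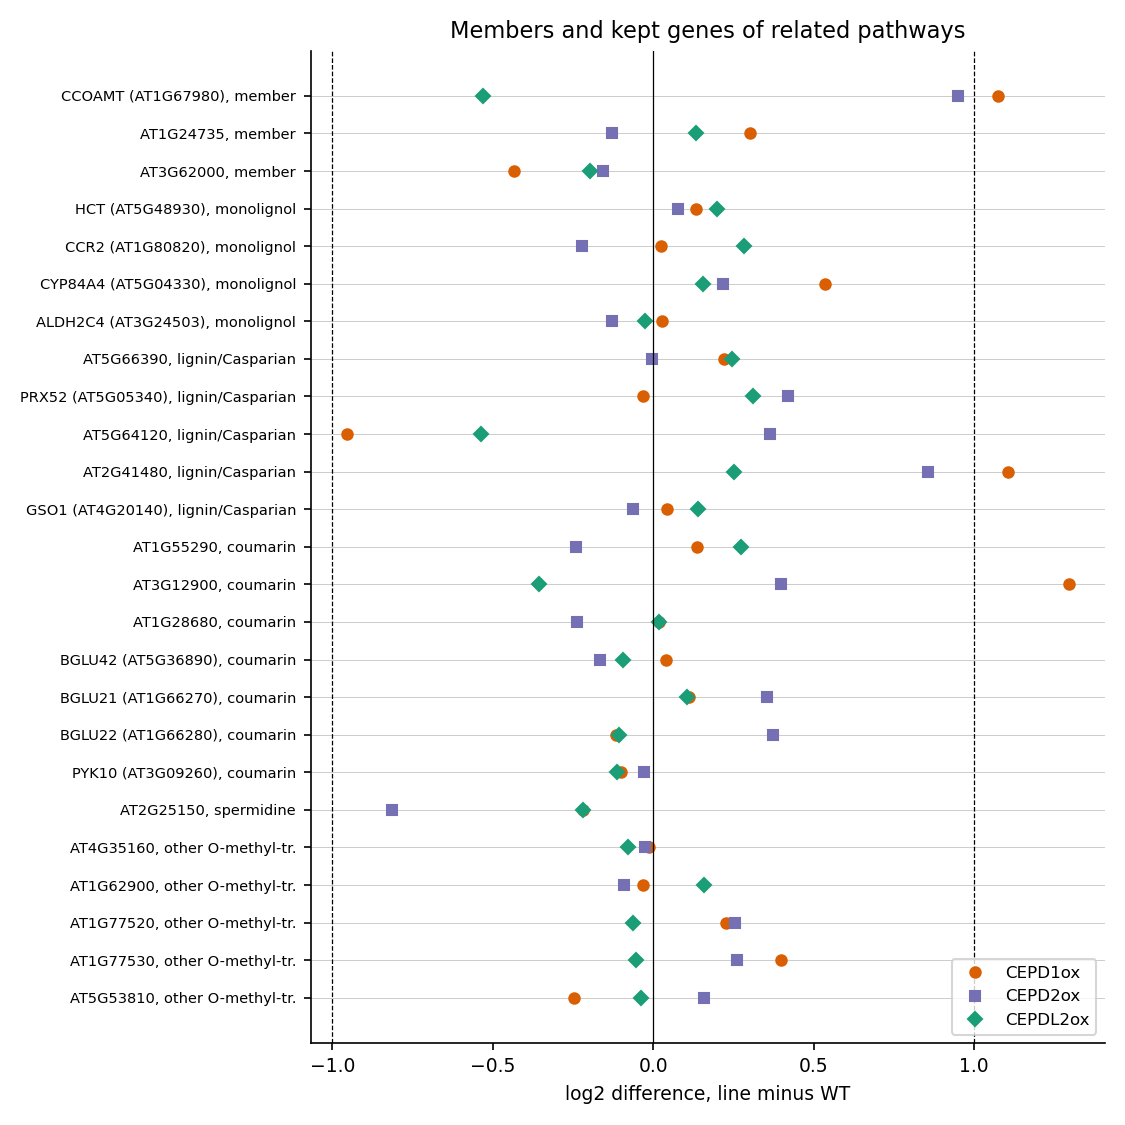
Log2 difference from WT (horizontal axis) for the 3 caffeoyl-CoA O-methyltransferase genes and the 22 kept genes of related lists (vertical axis, named with their list), with 1 symbol per line and dashed lines at 2-fold. Past 2-fold are CCOAMT, AT2G41480 and AT3G12900, each on the array labelled CEPD1ox.

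Of 5 loci for hydroxycinnamoyl spermidines, 2 had a named row. AT2G25150, known as SCT, an acyltransferase that joins coumaroyl groups to spermidine, differed from WT by -0.22 on the array labelled CEPD1ox, -0.82 for CEPD2ox and -0.22 for CEPDL2ox, from a WT signal of 3.72. SDT lay below the filter value on every array. Of 8 tapetum and anther markers, AMS and AT5G62080 had a named row. AMS had log2 signals of 3.32 on the array labelled CEPD1ox, 3.12 for CEPD2ox and 3.23 for CEPDL2ox, against 3.12 in WT, just above the filter value, and AT5G62080 lay below it.

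Of 17 other O-methyltransferase genes, those of the caffeate and indole type, 5 passed the filter out of 9 with a named row. None was past 2-fold from WT, beside 2.77% of all genes kept. AT1G77530 differed by 0.40 on the array labelled CEPD1ox, 0.26 for CEPD2ox and -0.05 for CEPDL2ox, and its relative AT1G77520 by 0.23 on the array labelled CEPD1ox, 0.26 for CEPD2ox and -0.06 for CEPDL2ox. AT5G53810 differed by -0.25 on the array labelled CEPD1ox, 0.16 for CEPD2ox and -0.04 for CEPDL2ox. AT4G35160, known for methylating N-acetylserotonin, lay within 0.08 of WT. The 13 loci of the S-adenosylmethionine cycle, which supplies the methyl groups, and 12 regulators of phenylpropanoid and lignin genes lacked rows of their own, so their signals were not analysed here.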

How the data were processed

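Root RNA of 4 genotypes was measured on 1 array each, from 100 ng of total RNA. The authors deposited log2 signals per array row; the submitters' processing notes name Affymetrix Expression Console 1.3. How rows were summarized and normalized, and the genome build, is not given in the sources used here. That the logarithm has base 2 was inferred from the range of 0.431 to 13.8. Nothing was rescaled before the main comparison. Folds are 2 to the power of a log2 difference, and near background they understate the difference in RNA. Depth has no meaning for arrays, and precision is limited by the number of arrays.

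Of 38408 rows, 16722 were annotated with 1 gene, of which 16574 matched a TAIR10.1 locus. Where a gene had several rows, the one with the highest mean signal was taken. Genes whose highest signal did not reach 2.78 (the 25th percentile over genes and arrays) were dropped, which kept 13232 of 16548. All 3 members had 1 row and passed. The threshold was 2-fold.

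The members and the 10 gene lists with 133 loci were chosen with earlier results of these data known. Named were all members with a row, the 6 genes most like CCOAMT, list genes past 2-fold in any line and up to 4 genes per list with the largest mean difference. Other list genes, neighbours and HPR were named after their values were seen. Alternatives were other thresholds, filters and normalizations, the mean over rows and leaving out each line. Call counting was tested on simulated data with changes set well past the threshold, which does not check calls near 2-fold. Python 3.11.15 with pandas 2.3.3, R 4.3.3 and limma 3.58.1 were used.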

Additional observations from a re-analysis of the deposited data

Results flagged for a closer look

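These results were flagged because lines differed from WT in opposite directions, each by more than the SD of that difference over all kept genes (0.305 to 0.320). The share of all kept genes that meet this rule was not counted, so a flag does not mark a gene as rare. With 1 array per line the differences between lines were not tested. CCOAMT was chosen through the contrast of CEPDL2ox with the other lines, so its place here is a description. In its signal range of 3 to 5 the SD was wider, 0.393 to 0.425, and 15.3% of genes exceeded the size of its CEPDL2ox difference from WT. For CCOAMT, the difference from WT in CEPDL2ox less that on the array labelled CEPD1ox was -1.61, and less that in CEPD2ox it was -1.48. For AT3G12900 (S8H) the same values were -1.65 and -0.76. For AT5G64120 (PRX71), CEPD2ox less the array labelled CEPD1ox gave 1.32, and CEPDL2ox less CEPD2ox gave -0.90.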

How the results depend on the processing

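The 36 recomputed differences of the 3 members from WT moved by less than the SD of that difference over all kept genes, under quantile or cyclic loess normalization, a shift to a common median and the mean over rows. Each member had 1 row, so the mean over rows could not change its values and is no check on them. For CCOAMT the normalizations gave 1.08 to 1.13 on the array labelled CEPD1ox, 0.95 to 0.98 in CEPD2ox and -0.56 to -0.51 in CEPDL2ox. CEPDL2ox less the mean of the other lines was -1.54 for CCOAMT, -1.61 to -1.53 under the normalizations, and -0.53 with WT alone as the other side. Leaving out 1 line, the mean difference from WT ran from 0.21 to 1.01 for CCOAMT, from 0.00 to 0.22 for AT1G24735 and from -0.32 to -0.18 for AT3G62000. The count of members past 2-fold was 1, and 0 at 3-fold, 0 without the array labelled CEPD1ox, and 0 with a filter at the median over genes and arrays, which leaves CCOAMT and AT1G24735 out. Over all kept genes, 97, 67 and 102 were at least 2-fold higher than WT in the lines as ordered above, and 63, 52 and 65 lower. At 1.5-fold these were 520, 436 and 434 higher and 396, 348 and 443 lower. At 3-fold they were 10, 10 and 18 higher and 11, 8 and 10 lower. With the filter at the median they were 17, 13 and 43 higher and 17, 12 and 9 lower. The other settings kept these counts within 1.5 times. No paired analysis was possible because each genotype has 1 array and all share only the number 1.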
